A study of Mus musculus with 12 samples.

Results

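Integrin subunits and laminin chains were described in C18-4 cells, a mouse cell line that is used as a model of spermatogonial stem cells. The members were 34 genes picked by symbol, namely 24 integrin subunits and 10 laminin chains. Of these, 33 had an entry in the expression table of 17576 genes, and Lama1 was not analysed here. RNA of 12 libraries was sequenced, 3 for each of 4 groups. The 3NC group carried the LV3 lentivirus vector with a control shRNA, and the knockdown group, labelled C18_5251KD and called KD here, carried LV3 with a mixture of 3 shRNAs against lncRNA5251. The 5NC group carried the LV5 vector with no insert, and the overexpression group, labelled C18_5251OV and called OV here, carried LV5 with full-length lncRNA5251. All groups were the same line, whose labels give the strain as IRC mouse. The vector went with the control, so the effect of LV3 against LV5 and any other difference between 3NC and 5NC cannot be told apart. The labels do not say whether the 3 libraries of a group came from separate cultures, so p-values measure the spread between these libraries, which may be technical.

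Integrins are receptors of the cell surface that tie the extracellular matrix to the cytoskeleton. Each is a pair of an alpha and a beta subunit, and the alpha subunit largely sets the ligand: Itga3, Itga6 and Itga7 bind laminins, Itga5 and Itgav bind proteins with an RGD motif such as fibronectin and vitronectin, and Itga1, Itga2, Itga10 and Itga11 bind collagens. Laminins are trimers of an alpha, a beta and a gamma chain that build the basement membrane. Spermatogonia sit on the basement membrane of the seminiferous tubule, and Itga6 and Itgb1 are widely used as surface markers of spermatogonial stem cells.

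Values are RPKM, reads scaled to the length of the gene and the size of the library, as deposited. Depth in reads is unknown, and the relative depth of the libraries, from the smallest steps of 70 low genes, lay between 0.923 and 1.05. LncRNA5251 itself was not analysed here, so its level in the groups labelled as knockdown and overexpression was not checked. The heading of the C18-4 methods in the supplement names lncRNA8276, and the sample labels, which name lncRNA5251, were followed. Those methods also give fewer mixed shRNAs than the main text, which was followed for their number. Each of the 3 knockdown shRNA sequences had an exact match in 1 gene among 141767 GENCODE mouse transcripts on GRCm38, Purb, which encodes a protein that binds purine-rich elements. In KD, Purb stood at 9.32 ± 0.806 RPKM, below 3NC with 33.6 ± 0.624 RPKM, 5NC with 30.7 ± 1.46 RPKM and OV with 27.1 ± 5.30 RPKM (SD, n = 3). Of 15 germ cell markers in the table, 12 were below 1 RPKM in every library, Ret, Pou5f1, Kit and Nanos2 were listed at 0 throughout, and the mean RPKM of the defining germ cell genes Ddx4 and Dazl was at most 0.03 in any group. In such bulk RNA, fewer cells of a type and less RNA per cell cannot be told apart.

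C18-4 cells expressed RNA of a small set of integrins with Itgb1 far above the rest, and of the laminin chains Lama5, Lamb1, Lamb2 and Lamc1. Assembly into pairs or trimers was not measured, and trimers with Lama1 could not be judged. A subunit or chain was counted as expressed where its mean was at least 1 RPKM in each of the 4 groups. By this measure 13 genes were expressed, 9 integrin subunits and 4 laminin chains. Of 22 known integrin pairs, 8 had both subunits expressed. Itgb1 could pair with the laminin-binding Itga3, Itga6 and Itga7 and with the RGD-binding Itga5 and Itgav. Itgav could also pair with Itgb3 and Itgb5, and Itga2b, the subunit of the platelet fibrinogen receptor, with Itgb3. Of 11 known laminin trimers whose chains were all measured here, 2 had all chains expressed, Lama5 and Lamc1 with either Lamb1 or Lamb2. With a level of 0.5 RPKM in place of 1 there were 9 pairs, and with 3 RPKM there were 6.

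**Figure D1:**
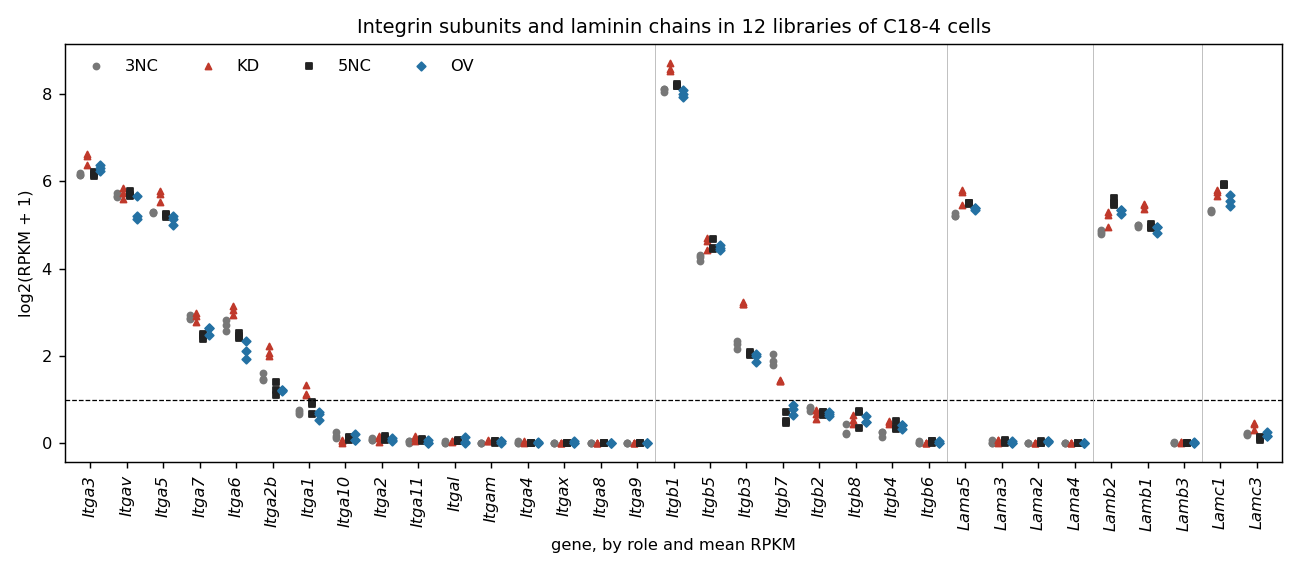
RPKM of the 33 measured genes, as log2(RPKM + 1), in each of the 12 libraries, ordered by role and mean level, with a dashed line at 1 RPKM. Itgb1 stands highest at 242 to 416 RPKM, and 18 genes stay below the line in every library.

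Itgb1, the common partner of most alpha subunits, was the most abundant subunit and made up between 90.01% and 92.9% of the RPKM of all beta subunits in a library. Itgb5 was the second beta subunit at 17.1 to 25.2 RPKM, followed by Itgb3 at 2.63 to 8.35 RPKM and Itgb7 at 0.390 to 3.11 RPKM. Among the alpha subunits, Itga3 took 39.9% to 50% of the summed RPKM of a library, Itgav 21.9% to 30.8% and Itga5 18.6% to 25.2%. Itga7 and Itga6 lay lower, at 4.26 to 6.96 and 2.81 to 7.76 RPKM. Itgb1 RPKM was 1.57 to 2.11 times the summed RPKM of its 5 expressed alpha partners in every library, so in all of these pairs the alpha subunit was the less abundant side.

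The 18 genes that did not reach the level for testing were below 1 RPKM in every library, and 14 of them were below 0.2 RPKM. The leukocyte subunits Itgal, Itgam and Itgax had maxima of 0.1, 0.06 and 0.03 RPKM, while their partner Itgb2 lay between 0.460 and 0.770 RPKM. Ptprc, the pan-leukocyte marker, had a highest group mean of 0.0267 RPKM, 6 of 8 leukocyte markers in the table were below 1 RPKM in every library, and only Cd68 was tested. Of the collagen receptors, Itga2, Itga10 and Itga11 did not exceed 0.120, 0.190 and 0.120 RPKM. Itga4 and Itga8 reached at most 0.0300 and 0.0100 RPKM, and Itga9 was listed at 0 in all libraries. The epithelial beta subunits Itgb4 and Itgb6 reached 0.420 and 0.0300 RPKM, and Itgb8, a partner of Itgav that acts on latent TGF-beta, lay between 0.150 and 0.680 RPKM. Of the laminin chains, Lama2, Lama3, Lama4 and Lamb3 did not exceed 0.05 RPKM and Lamc3 did not exceed 0.370 RPKM.

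In KD, the group labelled as knockdown, 9 of the 15 tested genes were higher than in both control groups and 0 were lower than in both. They were the alpha subunits Itga1, Itga3, Itga5, Itga6 and Itga2b, the beta subunits Itgb1 and Itgb3, and the laminin chains Lama5 and Lamb1. Itgb3 had the highest fold, 2.16 times its mean RPKM in 3NC and 2.60 times that in 5NC, while Itgb1, Itga3, Itga5 and Lamb1 stood 1.29 to 1.42 times above the controls. Among all 11435 genes tested, 19.8% were higher and 15.1% were lower than both controls by the same rule, an adjusted p of at most 0.05 in limma with Benjamini-Hochberg adjustment. At an unadjusted p under 0.05 the members' counts were again 9 and 0, beside 21.5% and 16.6% of all genes. Itga1 reached the level for testing only through the 3 knockdown libraries, so its difference follows in part from the filter. Among the 13 genes at 1 RPKM or more in every library the counts were 8 and 0.

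**Figure D2:**
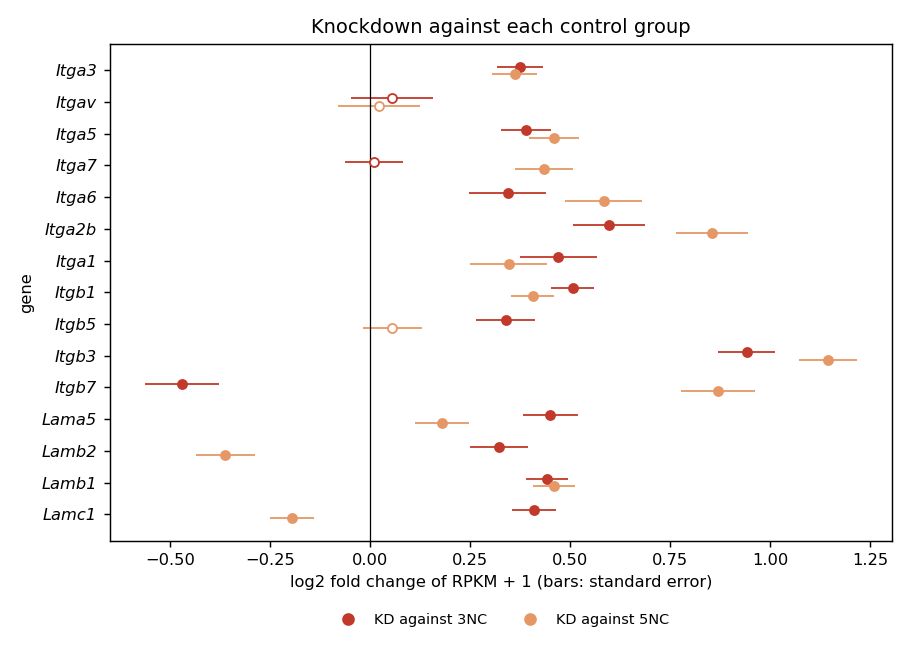
Difference of log2(RPKM + 1) between KD and each control group for the 15 tested genes, with standard errors as bars and filled points where the adjusted p was at most 0.05. Itgb3 lies furthest to the right, at 0.94 against 3NC and 1.15 against 5NC, and Itgb7, Lamb2 and Lamc1 lie on opposite sides of 0 against the 2 controls.

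Itgb3, the beta subunit that joins Itgav in the vitronectin receptor, was at 3.46, 4.06 and 3.86 RPKM in 3NC and at 8.35, 8.11 and 8.12 RPKM in KD. In 5NC it was at 3.06, 3.26 and 3.15 RPKM and in OV at 2.63, 3.14 and 3.01 RPKM. The knockdown libraries stood apart from all 9 others, which ran from 2.63 to 4.06 RPKM, with those of 3NC above those of 5NC and OV. The difference of KD from 3NC on the log2(RPKM + 1) scale was 0.94 ± 0.07 (SE, adjusted p = 5.47e-08), and that from 5NC was 1.15 ± 0.07 (adjusted p = 3.33e-09). Its partner Itgav rose against neither control, with RPKM of 52.35, 47.47 and 56.48 in KD beside 48.60 to 51.64 in 3NC and 49.63 to 53.86 in 5NC, and log2 differences of 0.05 ± 0.10 (adjusted p = 0.671) and 0.02 ± 0.10 (adjusted p = 0.859). Itgb5, another partner of Itgav, was at 18.14, 18.68 and 17.14 RPKM in 3NC, 23.62, 25.16 and 20.49 RPKM in KD, 24.40, 20.98 and 21.10 RPKM in 5NC and 22.10, 21.04 and 20.52 RPKM in OV. KD was above 3NC and overlapped 5NC, so Itgb5 was higher than in 3NC (0.34, adjusted p = 0.00123) but not than in 5NC (0.06, adjusted p = 0.53). The ratio of Itgb5 to Itgb3 RPKM within a library was 2.82 ± 0.290 in KD, against 4.76 ± 0.425 in 3NC, 7.04 ± 0.823 in 5NC and 7.31 ± 0.951 in OV (SD, n = 3), and the knockdown libraries did not overlap those of another group.

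Itga2b, which pairs with Itgb3 on platelets, also rose, at a low level. It was at 1.77, 2.03 and 1.71 RPKM in 3NC, 3.20, 3.70 and 2.99 RPKM in KD, 1.63, 1.16 and 1.34 RPKM in 5NC and 1.31, 1.34 and 1.28 RPKM in OV. All knockdown libraries lay above all others, with log2 differences of 0.60 ± 0.09 against 3NC (adjusted p = 4.99e-05) and 0.86 ± 0.09 against 5NC (adjusted p = 8.81e-07). Of the other platelet markers in the table, Gp9 had a highest group mean of 0.05 RPKM and Gp1bb had means between 0.990 and 1.10 RPKM.

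Itgb1 was at 276.59, 272.97 and 264.15 RPKM in 3NC, 378.88, 363.72 and 416.14 RPKM in KD, 288.12, 295.70 and 288.55 RPKM in 5NC and 241.93, 252.66 and 272.44 RPKM in OV. The knockdown libraries stood above all others, and the log2 differences were 0.51 ± 0.05 against 3NC (adjusted p = 1.57e-06) and 0.41 ± 0.05 against 5NC (adjusted p = 9.4e-06). Itga5, with Itgb1 the classical fibronectin receptor, was at 38.12, 37.34 and 38.45 RPKM in 3NC and 51.23, 54.03 and 45.30 RPKM in KD. It was at 35.33, 36.81 and 36.28 RPKM in 5NC and 33.99, 35.61 and 30.92 RPKM in OV, so that again only the knockdown libraries were high. Its log2 differences were 0.39 ± 0.06 against 3NC (adjusted p = 9.56e-05) and 0.46 ± 0.06 against 5NC (adjusted p = 1.36e-05).

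Itgb1 and Itga5, which can pair with each other, were both higher in KD than in both controls. Within KD, replicate 3 was the highest for Itgb1 and the lowest for Itga5. The 250 bases before the start of each gene are shown from RefSeq on GRCm38.p6, 5′ to 3′ on the strand of the gene. Capitals mark the purine-rich repeat GGNGGNGGNGG on either strand, with overlapping matches merged, and Itgb1 lies at chr8:128685404-128685653 on the plus strand and Itga5 at chr15:103366792-103367041 on the minus strand.
Itgb1: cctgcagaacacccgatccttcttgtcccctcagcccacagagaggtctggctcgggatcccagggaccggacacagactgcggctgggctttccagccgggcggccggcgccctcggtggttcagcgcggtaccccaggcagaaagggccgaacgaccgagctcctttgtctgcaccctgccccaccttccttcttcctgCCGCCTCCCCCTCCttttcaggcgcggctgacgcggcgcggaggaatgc
Itga5: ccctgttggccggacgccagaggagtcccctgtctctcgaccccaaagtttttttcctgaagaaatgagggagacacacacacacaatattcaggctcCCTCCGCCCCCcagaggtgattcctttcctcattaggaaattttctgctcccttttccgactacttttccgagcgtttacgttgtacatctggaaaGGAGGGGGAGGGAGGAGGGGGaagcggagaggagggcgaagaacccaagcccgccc
The table of promoters had an entry for 23 members, 7 of them among the 9 that rose against both controls. The purine-rich repeat was found in 3 of these 7, Itga5, Itgb1 and Lamb1, in 4 of the 16 other members with an entry and in 15% of all 32851 promoters of this length. The GC box GGGCGG, on either strand, was found in 5 of the 7, Itga3, Itga5, Itgb1, Lama5 and Lamb1, in 3 of the 16 and in 32.7% of all promoters. The AP-1 site TGANTCA was found in 0 of the 7, 1 of the 16 and 6.75% of all. The GC box and the purine-rich repeat can overlap. These matches describe letters in the windows only.

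**Figure D3:**
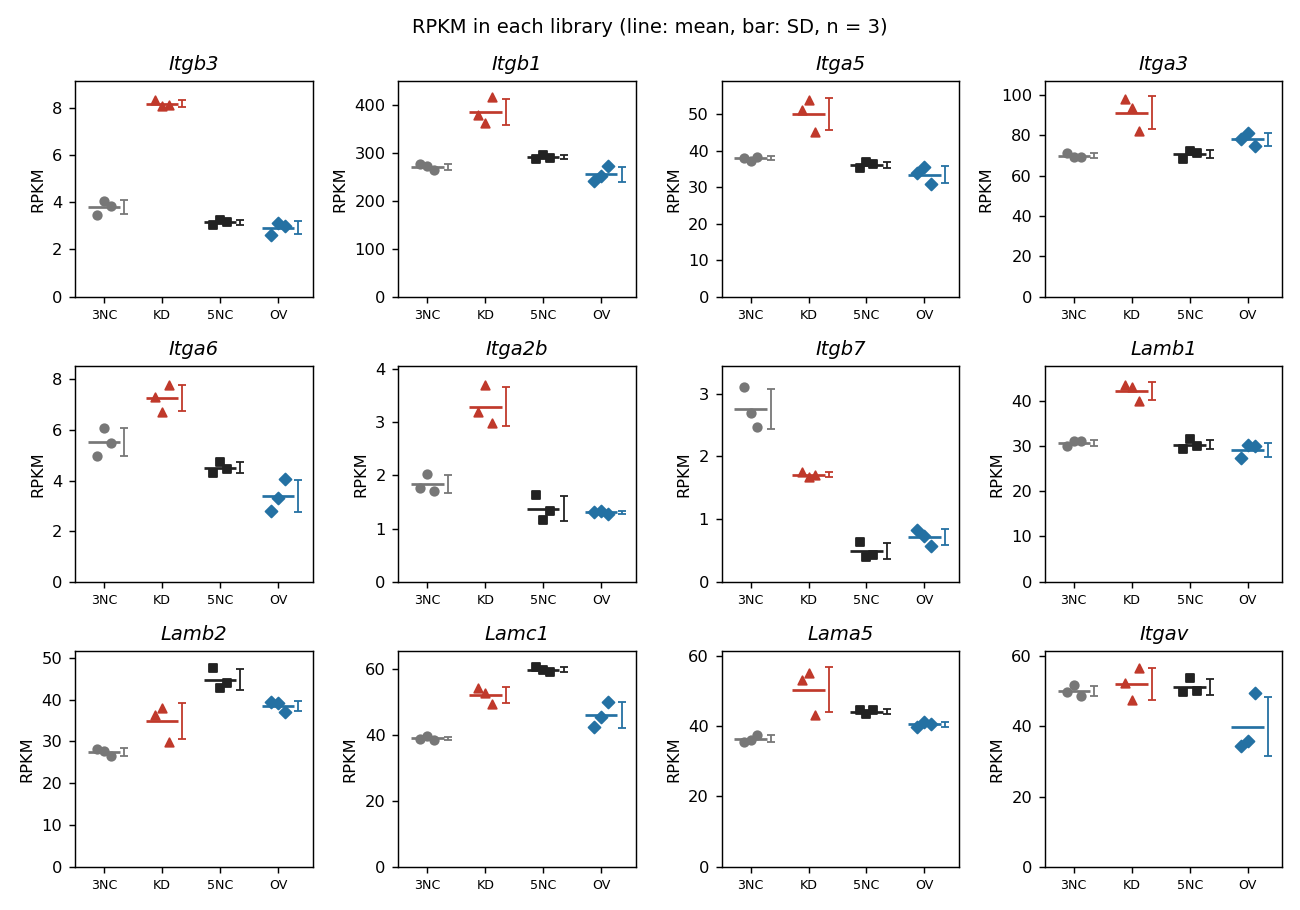
RPKM of 12 integrin and laminin genes in each of the 12 libraries by group, with a line at the mean and a bar for the SD (n = 3). The KD libraries stand above all others for Itgb3, Itgb1, Itga5, Itga3, Itga6, Itga2b and Lamb1, while Lamb2 and Lamc1 are highest in 5NC.

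The laminin receptors Itga3 and Itga6 were both higher with knockdown. Itga3 was at 71.39, 69.11 and 69.35 RPKM in 3NC, 97.83, 93.75 and 82.21 RPKM in KD, 68.37, 72.42 and 71.19 RPKM in 5NC and 78.30, 81.15 and 74.76 RPKM in OV. The knockdown libraries were the highest and the 2 control groups overlapped, with log2 differences of 0.38 ± 0.06 against 3NC (adjusted p = 5.82e-05) and 0.36 ± 0.06 against 5NC (adjusted p = 5.72e-05). Itga6 was at 4.98, 6.08 and 5.48 RPKM in 3NC, 7.31, 6.71 and 7.76 RPKM in KD, 4.31, 4.74 and 4.47 RPKM in 5NC and 2.81, 3.3 and 4.07 RPKM in OV. Its order was knockdown, 3NC, 5NC and overexpression with no overlap between neighbouring groups, and the log2 differences of KD were 0.34 ± 0.10 against 3NC (adjusted p = 0.00709) and 0.58 ± 0.10 against 5NC (adjusted p = 8.48e-05). Itga7, the laminin receptor of muscle, was at 6.19, 6.26 and 6.67 RPKM in 3NC, 6.51, 6.96 and 5.83 RPKM in KD, 4.70, 4.51 and 4.26 RPKM in 5NC and 5.19, 5.25 and 4.60 RPKM in OV. KD overlapped 3NC (log2 difference 0.01, adjusted p = 0.924) and lay above 5NC (0.44, adjusted p = 9.85e-05).

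Itga1, a collagen receptor subunit, was close to the level needed for testing. It was at 0.60, 0.70 and 0.64 RPKM in 3NC, 1.15, 1.19 and 1.52 RPKM in KD, 0.60, 0.93 and 0.87 RPKM in 5NC and 0.45, 0.65 and 0.58 RPKM in OV. The knockdown libraries were the highest, with log2 differences of 0.47 ± 0.10 against 3NC (adjusted p = 0.000766) and 0.35 ± 0.10 against 5NC (adjusted p = 0.00553). Without any 1 of the 3 knockdown libraries Itga1 was not tested, because too few libraries reached 1 RPKM. With a pseudocount of 0.1 in place of 1 the log2 differences of this low gene were 0.89 and 0.63.

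Itgb7, a partner of Itga4 in lymphocyte homing, had the largest difference between the 2 control groups among the 15 tested genes. It was at 3.11, 2.69 and 2.47 RPKM in 3NC, 1.75, 1.67 and 1.70 RPKM in KD, 0.63, 0.39 and 0.43 RPKM in 5NC and 0.83, 0.73 and 0.57 RPKM in OV. Both LV3 groups lay above both LV5 groups, and KD lay between the controls, so it was lower than 3NC (log2 difference -0.47 ± 0.09, adjusted p = 0.000539) and higher than 5NC (0.87 ± 0.09, adjusted p = 9.9e-07). The control groups differed by -1.34 ± 0.09 (5NC against 3NC, adjusted p = 1.27e-08), and by -2.31 with a pseudocount of 0.1, where KD was 1.65 above 5NC. Itgb7 reached the level for testing through the 6 libraries of 3NC and KD alone, so its differences from 5NC and OV follow in part from the filter. Its partner Itga4 was near 0, with a maximum of 0.03 RPKM.

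The laminin chains differed in how KD stood to the 2 controls. Lamb1 was at 29.91, 31.13 and 31.11 RPKM in 3NC, 43.49, 42.99 and 39.83 RPKM in KD, 29.43, 31.54 and 29.97 RPKM in 5NC and 27.25, 30.14 and 29.90 RPKM in OV. Only the knockdown libraries stood apart, with log2 differences of 0.44 ± 0.05 against 3NC (adjusted p = 5.6e-06) and 0.46 ± 0.05 against 5NC (adjusted p = 2.33e-06). Lamb2, the other beta chain, was at 28.30, 27.69 and 26.49 RPKM in 3NC, 36.33, 38.13 and 29.92 RPKM in KD, 47.61, 42.70 and 44.11 RPKM in 5NC and 39.34, 39.24 and 37.17 RPKM in OV. It was higher with knockdown than in 3NC (0.32 ± 0.07, adjusted p = 0.00162) and lower than in 5NC (-0.36 ± 0.07, adjusted p = 0.000487). The 2 controls differed by 0.68 ± 0.07 (5NC against 3NC, adjusted p = 1.48e-06), more than either difference of the knockdown.

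Lamc1, the gamma chain of both expressed trimers, also had KD between the controls. It was at 38.82, 39.51 and 38.48 RPKM in 3NC, 54.17, 52.60 and 49.48 RPKM in KD, 60.52, 59.65 and 59.03 RPKM in 5NC and 42.34, 45.41 and 50.05 RPKM in OV. The values lay above 3NC (0.41 ± 0.06, adjusted p = 1.87e-05) and below 5NC (-0.20 ± 0.06, adjusted p = 0.00631). Lama5 was at 35.56, 36.06 and 37.52 RPKM in 3NC, 52.98, 54.92 and 43.13 RPKM in KD, 44.40, 43.29 and 44.59 RPKM in 5NC and 39.79, 41.02 and 40.55 RPKM in OV. It was higher with knockdown than in 3NC (0.45 ± 0.07, adjusted p = 5.51e-05), but against 5NC the libraries overlapped, because knockdown replicate 3 lay below all 3 of 5NC, and the difference was 0.18 ± 0.07 (adjusted p = 0.0314). The adjusted p of this last difference ran from 6.33e-05 to 0.162 over 17 alternatives and was above 0.05 in 7 of them. These included each fit without knockdown replicate 1 (log2 difference 0.14), without knockdown replicate 2 (0.11) or without any 1 library of 5NC (0.17 to 0.19).

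**Figure D4:**
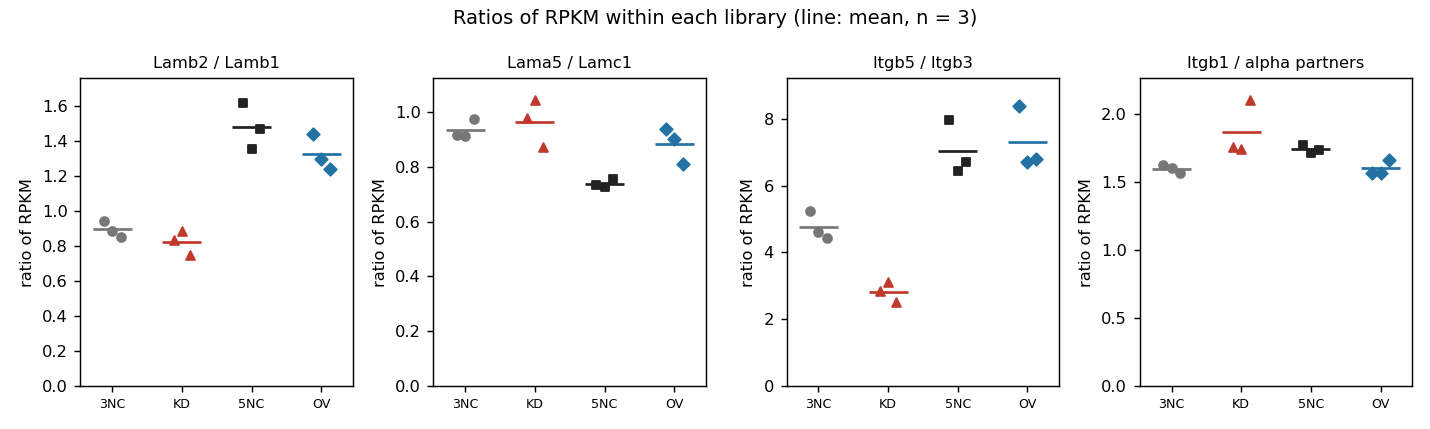
Ratios of RPKM within each library for Lamb2 to Lamb1, Lama5 to Lamc1, Itgb5 to Itgb3 and Itgb1 to the sum of its 5 expressed alpha partners, with a line at the mean of each group (n = 3). Lamb2 to Lamb1 is below 1 in all LV3 libraries and above 1 in all LV5 libraries, and Itgb5 to Itgb3 is lowest in KD.

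The ratio of the beta chains separated the vectors without overlap. Lamb2 to Lamb1 was 0.896 ± 0.0476 in 3NC and 0.825 ± 0.0685 in KD, against 1.48 ± 0.132 in 5NC and 1.33 ± 0.103 in OV (SD, n = 3). Lama5 to Lamc1 was lowest in 5NC, at 0.726 to 0.755, and lay between 0.810 and 1.04 in all other libraries. The summed RPKM of the laminin chains was lowest in 3NC at 134 ± 0.941, followed by OV at 154 ± 4.75, and stood at 179 ± 2.60 in 5NC and 180 ± 14.8 in KD. These sums and ratios were not tested.

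Counted by comparison, 12 of the 15 tested genes were higher and 1 was lower in KD than in 3NC, where 31.9% and 23.5% of all genes tested were. Against 5NC, 11 were higher and 2 lower, with 34.0% and 31.4% of all genes. These counts include Itga1 and Itgb7, which reached the level for testing only through groups where they were high. Among the 13 members at 1 RPKM or more in every library, 11 were higher and 0 lower against 3NC, and 9 and 2 against 5NC. The median log2 difference of the members was 0.39 against 3NC and 0.41 against 5NC, and that of all genes was 0.04 and 0.02. The 11 tested integrins had a median of 0.38 against 3NC and 0.44 against 5NC, although Itgb7 changed direction and Itgb5 did not pass against 5NC. The 4 laminin chains had medians of 0.43 and -0.01. The libraries did not overlap for 13 and 12 of the 15 genes in these comparisons, and for 62.8% and 69.4% of all genes. The study used a stricter threshold, with an adjusted p no higher than 0.001 and a log2 fold change of 1 or more in either direction. By it, no member was higher (0.498% of all genes) or lower (1.08%) than 3NC, and against 5NC only Itgb3 was higher (1.26%) and none was lower (2.29%). These counts hold for a pseudocount of 1. With a pseudocount of 0.1, a setting added after the values were seen, Itgb3 was also higher than 3NC by this threshold (log2 difference 1.09, 1.45% of all genes higher), and Itgb3, Itga2b and Itgb7 were higher than 5NC (2.53%). Within the knockdown group, replicate 3 was the lowest library for 9 of the 15 genes and the highest for 4, Itga1, Itga6, Itgav and Itgb1, and the part of this library in the results was not tested beyond leaving it out.

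The members also differed between the 2 control groups. Against 3NC, 4 of 15 were higher in 5NC, namely Itgb5, Lama5, Lamb2 and Lamc1, and 5 were lower, namely Itga6, Itga7, Itga2b, Itgb3 and Itgb7, with 31.0% and 25.6% of all genes, so the shares were near the background. By the threshold of the study Itgb7 was lower (1.05% of all genes) and none was higher (1.56%). Itgb7 reached the level for testing only through 3NC and KD, so this call follows in part from the filter. The lower call of Itga6 (-0.24, adjusted p = 0.0462) was lost in 9 of 17 alternatives. The call of Itgb3 was lost without 3NC replicate 2 or 3 or 5NC replicate 1 or 3, and that of Itga2b without 3NC replicate 2 or 5NC replicate 2 or 3. Without 3NC replicate 2 or 5NC replicate 3 there were thus 2 lower calls, and without 3NC replicate 3 or 5NC replicate 1 or 2 there were 3.

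With overexpression the lower members included Itga6 and Itgav, whose calls against 5NC were lost in 7 and 6 of 17 alternatives. Against 5NC, 0 of 15 were higher and 4 were lower, namely Itga6, Itgav, Itgb1 and Lamc1, where 8.07% and 13.9% of all genes were higher and lower in limma, and at an unadjusted p under 0.05 the counts were 2 and 5, beside 14.0% and 23.1% of all genes. Against 3NC, 4 were higher (30.2% of all genes), Itga3, Itgb5, Lamb2 and Lamc1, and 7 were lower (31.1%), Itga5, Itga6, Itga7, Itga2b, Itgav, Itgb3 and Itgb7. Against both controls 0 were higher (4.11% of all genes) and 2 were lower (7.51%), Itga6 and Itgav, and at an unadjusted p under 0.05 the counts were 1 and 2, the 1 being Itga3, beside 7.22% and 12.3% of all genes. By the threshold of the study there were no calls against 5NC among members or among all genes (0.00% higher and 0.00% lower). Against 3NC none was higher (1.50%) and only Itgb7 was lower (1.28%), a call that follows in part from the filter. The median log2 difference of the members was -0.11 against 5NC and -0.09 against 3NC, and that of all genes -0.03 and -0.01. The libraries did not overlap for 7 and 11 of the 15 genes, and for 36.7% and 64.8% of all genes. Against 3NC, the higher calls of Itga3 and Itgb5 were both lost without 3NC replicate 3 or OV replicate 1, which left 2. The lower call of Itga5 was lost without 3NC replicate 1 or 3 or OV replicate 3, that of Itga2b without 3NC replicate 2, and that of Itgav without OV replicate 1 or 2, with a highest adjusted p of 0.0553 in limma. Without OV replicate 3, Itga3 and Itgb7 became higher calls against 5NC, and without KD replicate 3 Itga3 did.

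**Figure D5:**
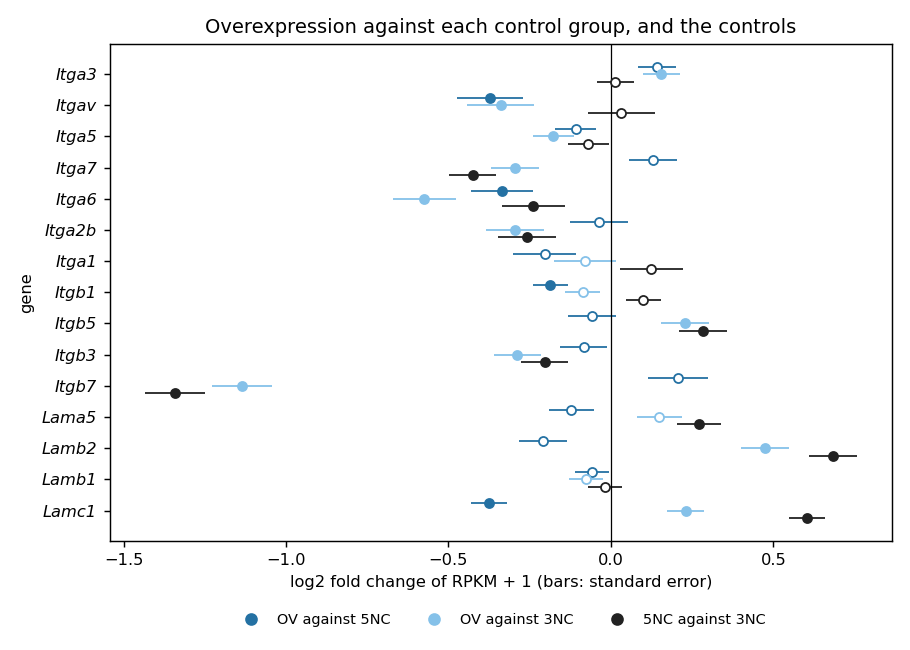
Difference of log2(RPKM + 1) in the 15 tested genes for OV against each control and for the controls against each other, with standard errors as bars and filled points where the adjusted p was at most 0.05. Itgb7, at -1.13 for OV and -1.34 for 5NC against 3NC, lies furthest from 0.

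Lamc1 had the lowest adjusted p against 5NC, with a difference of -0.38 ± 0.06 on the log2 scale (adjusted p = 0.000894 from limma), and all overexpression libraries lay below all 5NC libraries. It remained above 3NC (0.23 ± 0.06, adjusted p = 0.00233). Itga6 was lower than 5NC by a log2 difference of -0.34 ± 0.10 (adjusted p = 0.0254) and lower than 3NC by -0.57 ± 0.10 (adjusted p = 0.000119), with no overlap against either. Its ratio to Itga3 shifted with it, since Itga3 to Itga6 reached 23.6 ± 4.82 in OV beside 15.7 ± 0.357 in 5NC, 12.8 ± 1.49 in 3NC and 12.6 ± 1.80 in KD (SD, n = 3), a ratio that was not tested.

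Itgav was at 34.29, 35.74 and 49.49 RPKM in OV, 49.63, 53.86 and 50.05 RPKM in 5NC and 49.79, 51.64 and 48.60 RPKM in 3NC. Its difference rested on replicates 1 and 2 of the overexpression group, since replicate 3 lay within the range of 3NC. The log2 difference was -0.37 ± 0.10 against 5NC (adjusted p = 0.0205) and -0.34 ± 0.10 against 3NC (adjusted p = 0.00975). Itgb1 was lower than 5NC (-0.19 ± 0.05, adjusted p = 0.0248) and not than 3NC (-0.09, adjusted p = 0.176). Replicate 3 of OV was the highest of its group for Itga6, Itgav, Itgb1 and Lamc1 and the lowest for 7 other members. The calls of Itga6, Itgav and Itgb1 against 5NC were all lost without overexpression replicate 1 or 2 or without 5NC replicate 2 or 3, which left Lamc1 as the 1 lower gene.

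Genes for proteins that activate integrins or join them to actin differed in both directions. Of 27 tested in a list of 31, 8 were higher and 6 lower with knockdown against both controls, and the median log2 difference was 0.07 against 3NC and -0.11 against 5NC. Among all genes tested, 19.8% were higher and 15.1% lower by this rule. Ranked by the difference from 3NC, the first upward were in Lims2, a partner of integrin-linked kinase (0.85 and 1.26), Ptk2b, a kinase related to focal adhesion kinase (0.58 and 1.10), and Parva, which links integrin-linked kinase to actin (0.35 and 0.22). Downward they were in the small GTPase Rap1b, which acts in integrin activation (-0.61 and -0.66), Lims1, the paralog of Lims2 (-0.60 and -0.60), and Zyx, which encodes the focal adhesion protein zyxin (-0.47 and -1.22), each against 3NC and 5NC in that order. Lims1 was at 74.4 ± 0.359 RPKM in 3NC and 49.0 ± 3.65 RPKM in KD, while Lims2 was at 0.510 ± 0.184 and 1.73 ± 0.316 RPKM. Lims2, like Itga1, reached the level for testing only through the 3 knockdown libraries, so its difference follows in part from the filter. With overexpression 4 genes of this list were higher and 1 lower against both controls, beside 4.11% and 7.51% of all genes.

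Among integrin ligands other than laminins, 3 of 19 tested genes in a list of 25 were higher with knockdown against both controls and 6 were lower, beside the same 19.8% and 15.1% of all genes. The 3 were Col4a2 (0.48 against 3NC and 0.83 against 5NC) and Col4a1 (0.36 and 0.72), the main chains of basement membrane collagen, and Mfge8, an RGD protein (0.29 and 0.22). Fn1, which encodes fibronectin, the ligand of the Itga5 and Itgb1 pair, was at 8.28 ± 0.546 RPKM in 3NC, 3.45 ± 0.220 RPKM in KD and 7.68 ± 0.448 RPKM in 5NC (SD, n = 3). It was lower by log2 differences of -1.06 (adjusted p = 2.4e-08) and -0.96 (adjusted p = 3.36e-08), while Itga5 and Itgb1 were higher. Among the 6 lower than both controls, Ccn2, a matricellular protein, was next in size against 3NC, with -0.88 and -0.73. Npnt, a basement membrane ligand of RGD-binding integrins, followed with -0.66 and -0.56. Against 5NC, Nov (-1.28) and Madcam1 (-1.27) of these 6 were lower by more than Fn1. Madcam1, 1 of the 6, reached the level for testing in 8 libraries of the other groups and in none of KD, so its difference follows in part from the filter. The list's median was -0.01 against 3NC and -0.47 against 5NC, and with overexpression 1 gene was higher and 1 lower against both controls, beside 4.11% and 7.51% of all genes.

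Of the basement membrane components and laminin partners other than integrins, 18 of 24 listed genes were tested, and 7 were higher and 2 lower with knockdown against both controls, again beside 19.8% and 15.1% of all genes. Bcam, which encodes a receptor for Lama5 chains, was at 44.3 ± 2.38 RPKM in 3NC, 87.5 ± 12.2 RPKM in KD and 67.6 ± 2.04 RPKM in 5NC, with log2 differences of 0.96 and 0.36. Among the 7 higher than both controls, Ntn4, which encodes a laminin-related netrin, was next in size against 3NC (0.93 and 0.67). Agrn, which encodes the laminin-binding proteoglycan agrin, followed (0.69 and 0.52). Col4a1 and Col4a2 stand in this list too. The 2 that fell were Sdc4, a heparan sulfate proteoglycan of focal adhesions (-0.55 and -0.66), and Dst, a linker to intermediate filaments (-0.28 and -0.23). The median was 0.37 against 3NC and 0.00 against 5NC, and with overexpression 1 gene was higher and 1 lower against both controls, beside 4.11% and 7.51% of all genes.

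Markers of other testis cells moved unevenly beside these genes. Wt1, a Sertoli cell marker, had group means of 50.3 to 54.9 RPKM. Sox9, Amh and Cldn11 had group means of at most 0.123 RPKM, and 5 of 11 measured Sertoli markers were below 1 RPKM in every library. Of 6 tested Sertoli markers 0 were higher and 0 lower with knockdown against both controls. Of 5 tested myoid markers, 3 were higher (Des, Cnn1 and Tagln) and 1 was lower (Smtn) in KD than in both controls. Acta2 was higher than 3NC (log2 difference 1.04) and lower than 5NC (-0.18), and Myh11 had group means of at most 0.05 RPKM. The summed RPKM of the myoid list ran from 100 to 105 in 3NC, 116 to 127 in KD and 109 to 114 in 5NC. Tagln was the largest part, with means of 54.45, 65.34 and 55.35 RPKM in these groups. All 3 tested germ cell markers, Etv5, Uchl1 and Id4, were lower with knockdown against both controls. The other 12 measured germ cell markers were below 1 RPKM in every library. The germ cell list summed to 82.6 to 91.3 RPKM in 3NC, 63.6 to 71.9 RPKM in KD and 93.7 to 97.6 RPKM in 5NC. Uchl1 made up most of these sums, with means of 77.1, 65.1 and 91.1 RPKM in these groups. Of the Leydig list 1 gene was tested, Star, with no call against both controls, and all 5 endothelial markers were below 1 RPKM in every library. By the same rule 19.8% of all genes were higher and 15.1% lower. The part of these markers in the integrin and laminin differences was not tested.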

How the data were processed

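The data were 12 RNA-seq libraries of C18-4 cells. The authors enriched mRNA with oligo(dT) beads, sequenced it on an Illumina instrument, mapped reads to reference genes with SOAPaligner and deposited RPKM for 17576 genes, while the labels name total RNA. The genome build is not given in the sources used here. RPKM keeps no read number, and how reads common to related genes were divided is not stated. The authors' DEGseq test needs read numbers and was not run.

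From the RPKM, log2(RPKM + 1) was computed (pseudocount 1), which understates the change of low genes. The 11435 genes that reached 1 RPKM in 3 or more libraries were fitted with limma 3.58.1 in R 4.3.3, with eBayes and an intensity trend, to all 12 libraries with a term for the group. Benjamini-Hochberg adjustment ran over all genes tested, with calls at 0.05. The method was tested on simulated data. An exact permutation test of 3 against 3 libraries cannot give a two-sided p below 0.1. Comparisons of a group with both controls share that group's libraries. Groups and replicate numbers came from the labels. Equal replicate numbers did not pair the libraries, since the correlation of deviations lay between -0.18 and 0.18 and in no comparison were all pairs above 0.1. The members and the gene lists were chosen with earlier results of these data known. Values in every library are given for members that passed in KD against both controls, members past the threshold of the study in any comparison, and up to 4 most abundant tested members of each role, and for each list up to 3 genes per direction with the largest difference from 3NC among those that passed against both controls. Alternatives were a pseudocount of 0.1, no filter, quantile normalization, a fit to the groups compared, a replicate block, the threshold of the study, that threshold with a pseudocount of 0.1, added after seeing the data, and each library left out. The plots were made in Python 3.11.15 with matplotlib 3.10.9.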

Additional observations from a re-analysis of the deposited data

How the results depend on the processing

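Of 1260 values of single members under an alternative, 1175 had the same sign and the same call, 55 lost and 14 gained a call, and 16 changed sign, each without a call before or after. With quantile normalization the changed log2 differences were -0.023 (Itga7, KD against 3NC), 0.038 and 0.015 (Itga2b and Itgb3, OV against 5NC), and -0.0072 and -0.0069 (Itga3 and Itgav, 5NC against 3NC). With 1 library left out they ran, for KD against 3NC, from -0.041 to 0.069 (Itga7) and -0.0041 to 0.12 (Itgav), for KD against 5NC from -0.036 to 0.087 (Itgav) and -0.0066 to 0.14 (Itgb5), for OV against 5NC from -0.10 to 0.039 (Itga2b) and -0.093 to 0.011 (Itgb5), and for 5NC against 3NC from -0.0036 to 0.037 (Itga3), -0.0044 to 0.055 (Itgav) and -0.047 to 0.0015 (Lamb1). Over 17 alternative fits, 7 of the 9 genes higher in KD than both controls were called in every one, and Itga1 and Lama5 were not. With the replicate block the counts against both controls remained 9 higher with knockdown and 2 lower with overexpression, and the 1 other change was that Lamb2 was then lower in OV than 5NC, for 5 lower calls there. At the threshold of the study the higher and lower counts were 0 and 0 for KD against 3NC, 1 and 0 against 5NC, 0 lower for OV against 5NC, 0 and 1 for OV against 3NC, 0 and 1 for 5NC against 3NC, and 0 higher with knockdown and 0 lower with overexpression against both controls. With a pseudocount of 0.1 as well, chosen after seeing the data, they were 1 and 0 for KD against 3NC, 3 and 0 against 5NC, 0 lower for OV against 5NC, 0 and 1 for OV against 3NC (2.54% and 2.52% of all genes), 0 and 1 for 5NC against 3NC (2.61% and 1.81%), and against both controls 1 higher in KD (Itgb3) and 0 lower in OV. Without a filter 32 members were tested, with 16 higher and 2 lower calls for KD against 3NC (22.5% and 15.7% of all genes), Lamc3 joined and Lama5 left the 9 higher against both controls, and there was 1 lower call for OV against 5NC (6.81%) and 0 for OV against both controls (3.23%), and the fit to the groups compared also gave 0 for the last. Quantile normalization gave 2 lower calls with overexpression against both controls, of which 1 was shared, with Itgb1 in place of Itga6. The cause of these shifts was not tested. With 1 library left out, OV against 5NC had 0 to 2 higher and 1 to 6 lower calls, beside 3.43% to 14.6% and 5.15% to 22% of all genes. OV against 3NC had 2 to 5 higher (27.0% to 31.9%), 5NC against 3NC 2 to 5 lower (22.1% to 27.8%), and OV against both controls 0 to 1 higher (1.51% to 8.31%) and 0 to 3 lower (2.39% to 13.9%). RPKM keeps no depth, and members that did not reach the level for testing were assessed only in that fit without a filter.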
